A study of Mus musculus with 7 samples.

Results

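Newborn neurons and the progenitors that give rise to them were followed in mouse hippocampus through 9 genes chosen by name: Eomes, Mki67, Top2a, Neurod1, Sox4, Sox11, Igfbpl1, Dcx and Calb2. All 9 were found by symbol among the 21965 genes of the deposited count table. The study compared RNA of hippocampus from 4 NIHHL libraries with 3 Control libraries. NIHHL stands for noise-induced hidden hearing loss, produced here by 110 dB noise for 2 h, and the Control mice are labelled as blank controls. The study's design text places the tissue collection 1 month after induction. No label names a genotype, strain, sex, age or number of animals per library. A p-value here therefore weighs the difference between groups only against the spread of these samples within groups, which may be technical in part.

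In the adult mouse, new granule neurons are made in the subgranular zone of the dentate gyrus. Radial glia-like stem cells give rise to dividing intermediate progenitors, these to neuroblasts and immature neurons that express doublecortin, and those to mature granule neurons. Such cells are a small minority of the hippocampus, so in a bulk library their transcripts come from few cells, and several of the 9 genes are also transcribed elsewhere. The table identifies them as Eomes (ENSMUSG00000032446, chromosome 9), Mki67 (ENSMUSG00000031004, chromosome 7), Top2a (ENSMUSG00000020914, chromosome 11), Neurod1 (ENSMUSG00000034701, chromosome 2), Sox4 (ENSMUSG00000076431, chromosome 13), Sox11 (ENSMUSG00000063632, chromosome 12), Igfbpl1 (ENSMUSG00000035551, chromosome 4), Dcx (ENSMUSG00000031285, chromosome X) and Calb2 (ENSMUSG00000003657, chromosome 8), with chromosomes from the GENCODE M21 annotation of GRCm38. In bulk RNA, fewer cells of a type and less RNA per cell cannot be told apart.

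Total counts ran from 14871376 to 24515146 per library, and between 16292 and 16825 genes had a count. The libraries held markers of hippocampal neurons throughout, with Prox1 of dentate granule cells at 107 to 166 CPM in NIHHL and 101 to 145 CPM in Control, where CPM is the count scaled to library size. NIHHL replicate 4 and Control replicate 2 stood apart from the rest. NIHHL replicate 4 held the highest level of 20.4% and the lowest level of 22.3% of the 14417 genes tested, and Control replicate 2 held the highest of 22.8% and the lowest of 20.7%. A gene's deviation from its own mean followed its exon length with a Spearman correlation of 0.52 in NIHHL replicate 4, 0.45 in Control replicate 1 and -0.58 in Control replicate 2, over 8382 genes that share a library's preparation and are not independent. Results that rest on Control replicate 2 are given with and without it.

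No difference between NIHHL and Control passed the test in any of the 9 genes. All passed the filter on low counts, and 0 of 9 had an adjusted p under 0.05 in the quasi-likelihood test of edgeR, where 0% of all tested genes did (smallest adjusted p 0.472). Igfbpl1 alone had an unadjusted p under 0.05, 1 of 9 genes beside 3.63% of all tested genes, of which 2.32% were higher and 1.31% lower in NIHHL. In 0 of 9 genes did the values of NIHHL and Control stay apart without overlap, against 5.2% of all tested genes. The log2 fold change by edgeR was above 0 in 6 of the 9 genes and below 0 in 3. Its median was 0.06 beside -0.00045 over all genes. Without Control replicate 2 that median was 0.10, with 5 genes higher and 4 lower.

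**Figure D1:**
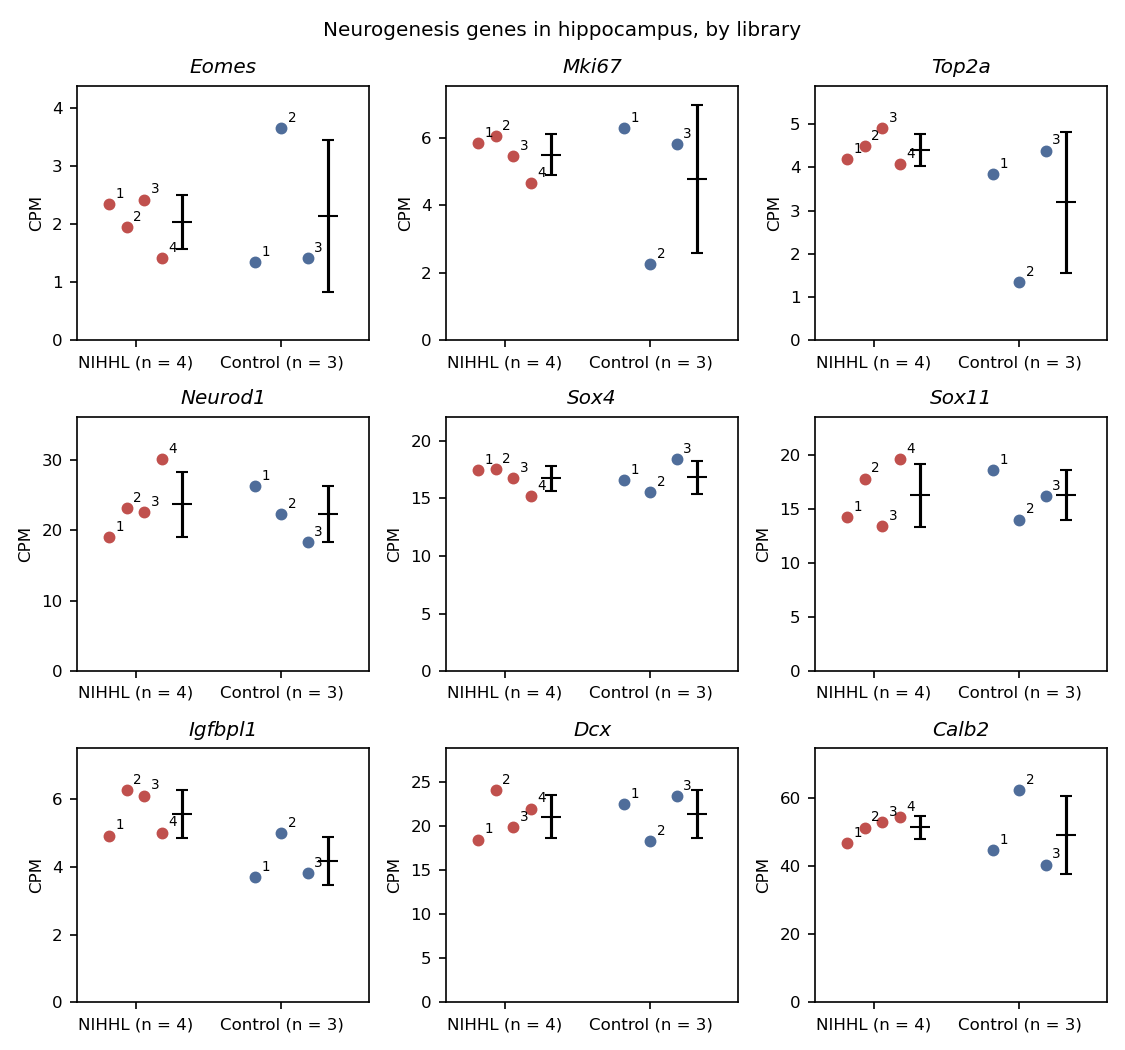
Each panel plots the CPM of 1 gene in every library, with NIHHL on the left and Control on the right, the replicate number beside each point, and the mean with its SD as a bar (n = 4 and n = 3). The values of NIHHL and Control overlap in every panel, and Control replicate 2 lies far from the other Control libraries for Eomes, Mki67 and Top2a.

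Eomes, also known as Tbr2, is a T-box transcription factor of intermediate progenitors that is also made in Cajal-Retzius cells. Its level was 2.35, 1.95, 2.42 and 1.42 CPM in NIHHL replicates 1 to 4, against 1.35, 3.65 and 1.41 CPM in Control replicates 1 to 3. Control replicate 2 was the highest of the 7 libraries, and its counting interval of 2.92 to 4.50 CPM (exact Poisson, 95%, counting error only) lay above those of the other Control libraries, which ended at 2.08 and 2.02 CPM. These values rest on only 20 to 87 counts per library. Over all libraries the log2 fold change was -0.10 (SE 0.36, 95% interval -0.89 to 0.69), with an adjusted p of 0.996 by edgeR. Without Control replicate 2 the direction turned and the log2 fold change was 0.56, with an adjusted p of 1.00 by the same test.

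Mki67 encodes Ki-67, a protein that coats mitotic chromosomes and marks dividing cells. Top2a encodes topoisomerase II alpha, which untangles DNA before chromosomes separate. Both belong to the genes that dividing cells switch on late in the cell cycle, whose promoters are known for CCAAT boxes, bound by NF-Y, and for cell cycle homology regions, with the core TTTGAA. The 250 bases before the RefSeq start of the 2 genes (GRCm38.p6, both on the minus strand, read 5′ to 3′) are shown because both motifs are known for promoters of this class and both occur in them at more than 1 place. They lie at chr7:135716380-135716629 for Mki67 and chr11:99024190-99024439 for Top2a. Capitals mark TTTGAA and CCAAT on either strand, so TTCAAA and ATTGG are also in capitals.
Mki67: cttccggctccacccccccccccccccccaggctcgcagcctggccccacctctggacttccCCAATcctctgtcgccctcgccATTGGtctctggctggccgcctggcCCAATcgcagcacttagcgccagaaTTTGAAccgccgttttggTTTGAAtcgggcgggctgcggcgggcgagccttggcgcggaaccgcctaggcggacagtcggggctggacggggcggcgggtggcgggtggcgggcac
Top2a: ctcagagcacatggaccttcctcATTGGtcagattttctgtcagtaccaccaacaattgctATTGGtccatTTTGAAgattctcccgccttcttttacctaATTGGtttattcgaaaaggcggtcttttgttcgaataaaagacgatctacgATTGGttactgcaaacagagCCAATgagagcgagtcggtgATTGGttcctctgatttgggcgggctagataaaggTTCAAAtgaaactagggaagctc
The Mki67 window held TTTGAA at 2 places and CCAAT at 3, and the Top2a window held them at 2 and 6 places, with no match overlapping another. Of 32851 promoter windows of the same length, 1.81% held TTTGAA at 2 or more places, 2.79% held CCAAT at 3 or more and 0.213% at 5 or more. Among the members with a RefSeq promoter (7 of 9), the Sox11 window also held both motifs, TTTGAA and CCAAT at 1 place each. CCAAT without TTTGAA was found at 4 places for Sox4, at 2 for Eomes and at 1 in one of the Dcx windows, and neither motif was found for Neurod1. These matches describe the sequence only.

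Mki67 stood at 5.85, 6.03, 5.45 and 4.66 CPM in NIHHL replicates 1 to 4, against 6.27, 2.27 and 5.80 CPM in Control replicates 1 to 3. Top2a stood at 4.19, 4.48, 4.90 and 4.07 CPM in NIHHL replicates 1 to 4, against 3.84, 1.34 and 4.39 CPM in Control replicates 1 to 3. Both genes were lowest in Control replicate 2, the deepest library, and the other 6 libraries lay close together whatever their group. The counts in Control replicate 2 were 54 for Mki67 and 32 for Top2a, against 93 and 57 in Control replicate 1, the shallowest library. Its counting intervals ended at 2.96 CPM for Mki67 and 1.90 CPM for Top2a, below the start of the interval in every other library.

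Over all libraries the log2 fold change was 0.23 (SE 0.30, 95% interval -0.43 to 0.88) for Mki67 and 0.49 (SE 0.33, 95% interval -0.24 to 1.21) for Top2a, each with an adjusted p of 0.996 by edgeR. Mki67 turned to -0.13 without Control replicate 2, and Top2a came to 0.10, both with an adjusted p of 1.00. Without Control replicate 3 Top2a was at 0.82, with an adjusted p of 0.996. Mki67 averaged 5.50 CPM in NIHHL and 6.04 CPM in Control without replicate 2, and Top2a averaged 4.41 CPM in NIHHL and 4.11 CPM in Control without replicate 2.

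**Figure D2:**
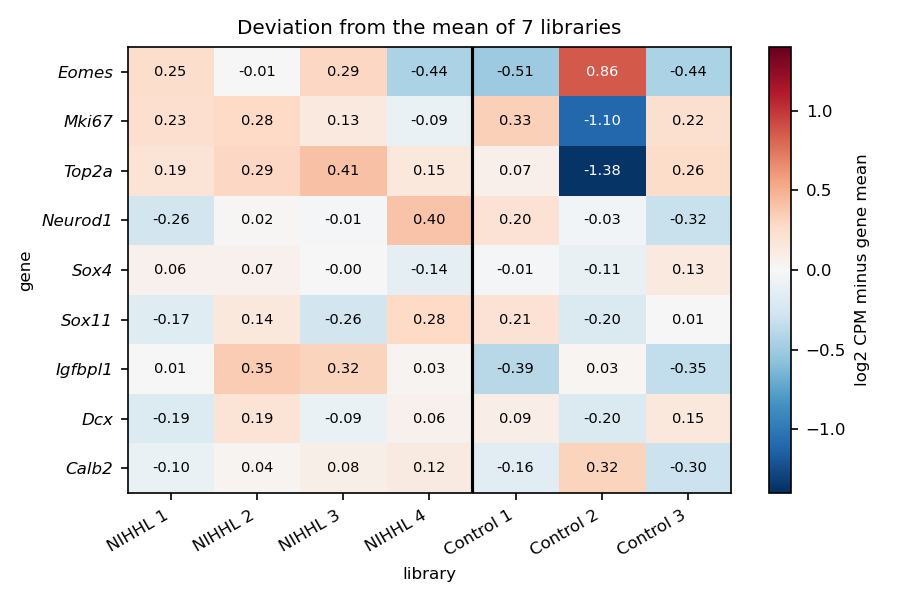
The colour and number give each gene's log2 CPM in 1 library minus its mean over the 7 libraries, with NIHHL libraries left of the line and Control libraries right of it. The largest deviations are all in Control replicate 2, at 0.86 for Eomes, -1.10 for Mki67 and -1.38 for Top2a.

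The position of these genes in Control replicate 2 was set beside that of genes of similar length. Mki67 and Top2a have exons of 10061 and 9013 bases in the GENCODE M21 annotation, and the 1000 tested genes nearest to each in length had a median deviation of -0.08 in that library. Of all tested genes, 0.604% deviated further downward there than Mki67 and 0.382% further than Top2a. Eomes, with 4155 exon bases, was at the other end, higher than 99.3% of genes, while genes of its length had a median deviation of 0.0048. An offset that removes the length trend, chosen after seeing the data, left the log2 fold changes at 0.22 for Mki67, 0.48 for Top2a and -0.08 for Eomes.

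**Figure D3:**
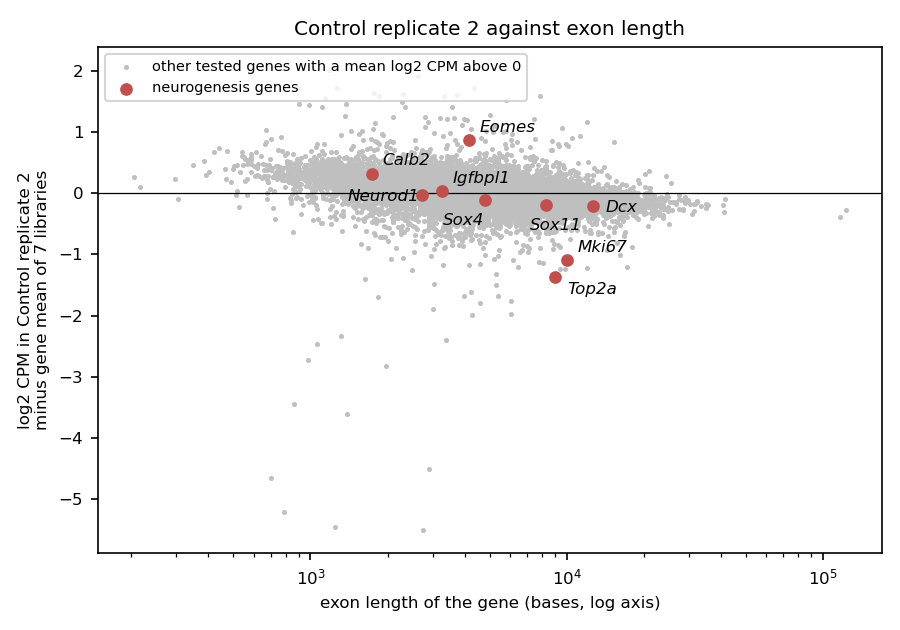
Each point is a gene, placed by its exon length in bases (log axis) and its log2 CPM in Control replicate 2 minus its mean over the 7 libraries. The cloud slopes down with length, and Eomes lies above it and Mki67 and Top2a below it, while the other 6 neurogenesis genes lie within it.

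Neurod1 is a basic helix-loop-helix factor needed for granule neurons to differentiate, and granule neurons keep it when mature. Its level was 19.0, 23.2, 22.6 and 30.1 CPM in NIHHL replicates 1 to 4, against 26.3, 22.3 and 18.3 CPM in Control replicates 1 to 3. The highest value was in NIHHL replicate 4 and the lowest in Control replicate 3, and the groups covered nearly the same range. The log2 fold change was 0.09 (SE 0.16, 95% interval -0.27 to 0.45) with an adjusted p of 0.996 by edgeR. Its exons share 201 of 2729 bases with Cerkl on the same strand, a gene with 14 to 33 counts per library.

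Sox4 and Sox11 are the SoxC transcription factors that switch on neuronal genes, Dcx among them, in newborn neurons. Sox4 lay at 17.5, 17.5, 16.7 and 15.2 CPM in NIHHL replicates 1 to 4, against 16.6, 15.5 and 18.4 CPM in Control replicates 1 to 3. Sox11 lay at 14.3, 17.8, 13.4 and 19.6 CPM in NIHHL replicates 1 to 4, against 18.6, 14.01 and 16.2 CPM in Control replicates 1 to 3. Neither gene separated the groups, and Sox4 varied least of the 9, with its highest library 1.21-fold above its lowest.

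The log2 fold change was -0.01 for Sox4 (SE 0.10, 95% interval -0.23 to 0.21) and 0.0037 for Sox11 (SE 0.15, 95% interval -0.32 to 0.33), each with an adjusted p of 1.00 by edgeR. On the linear scale the intervals ran from 0.855-fold to 1.16-fold for Sox4 and from 0.801-fold to 1.26-fold for Sox11. Of the 4795 exon bases of Sox4, 2616 are shared with Gm26735 on the opposite strand, so without strand information part of its count could come from that gene.

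Igfbpl1 encodes a secreted relative of the insulin-like growth factor binding proteins and is transcribed in neuronal progenitors and newborn neurons. Its level was 4.93, 6.26, 6.11 and 5.01 CPM in NIHHL replicates 1 to 4, against 3.71, 4.99 and 3.82 CPM in Control replicates 1 to 3. All NIHHL libraries lay above Control replicates 1 and 3, and NIHHL replicate 1 lay just below Control replicate 2. The mean of Igfbpl1 came to 5.58 ± 0.707 CPM for NIHHL, against 4.17 ± 0.711 CPM for Control (SD, n = 4 and n = 3).

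The log2 fold change of Igfbpl1 was 0.41 (SE 0.17, 95% interval 0.03 to 0.78) and it had the smallest p of the 9 genes, at rank 361 of 14417. Its p by edgeR was 0.0352 before and 0.996 after adjustment. An exact permutation test, two-sided and over all 35 splits, gave p = 0.0571 for log2 CPM, where the smallest p it can give is 0.0286. DESeq2 gave 0.0571 before and 1.00 after adjustment. The direction held under each of the 16 alternatives, between 0.34 and 0.61, and the unadjusted p was under 0.05 in 11 of them. By edgeR this p was 0.110 without Control replicate 1, 0.114 without Control replicate 3, 0.0889 without NIHHL replicate 2 and 0.0874 without NIHHL replicate 3 (adjusted p of 0.821 or more in each).

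Dcx encodes doublecortin, which stabilises microtubules in migrating neuroblasts and is the usual marker of newborn neurons. Its level was 18.5, 24.1, 19.9 and 22 CPM in NIHHL replicates 1 to 4, against 22.5, 18.3 and 23.4 CPM in Control replicates 1 to 3. The groups spanned almost the same range, with means of 21.1 ± 2.45 CPM in NIHHL and 21.4 ± 2.72 CPM in Control (SD, n = 4 and n = 3).

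The log2 fold change of Dcx was -0.02 (SE 0.12) with an adjusted p of 1.00 by edgeR, and the exact permutation test gave p = 0.943. The 95% interval ran from -0.28 to 0.24, or from 0.822-fold to 1.18-fold.

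Calb2 encodes calretinin, a calcium-binding protein that immature granule neurons carry for a short time, and that interneurons, mossy cells and Cajal-Retzius cells also make in the mouse. Its level was 46.7, 51.2, 52.9 and 54.3 CPM in NIHHL replicates 1 to 4, against 44.6, 62.1 and 40.4 CPM in Control replicates 1 to 3. Control replicate 2 lay above every NIHHL library, and the other Control libraries lay below every one. The log2 fold change was 0.06 (SE 0.13, 95% interval -0.24 to 0.36) with an adjusted p of 0.996 by edgeR. Without Control replicate 2 it was 0.27, with an unadjusted p of 0.0101 and an adjusted p of 1.00, and it turned to -0.06 without Control replicate 3 and also turned sign without Control replicate 1.

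**Figure D4:**
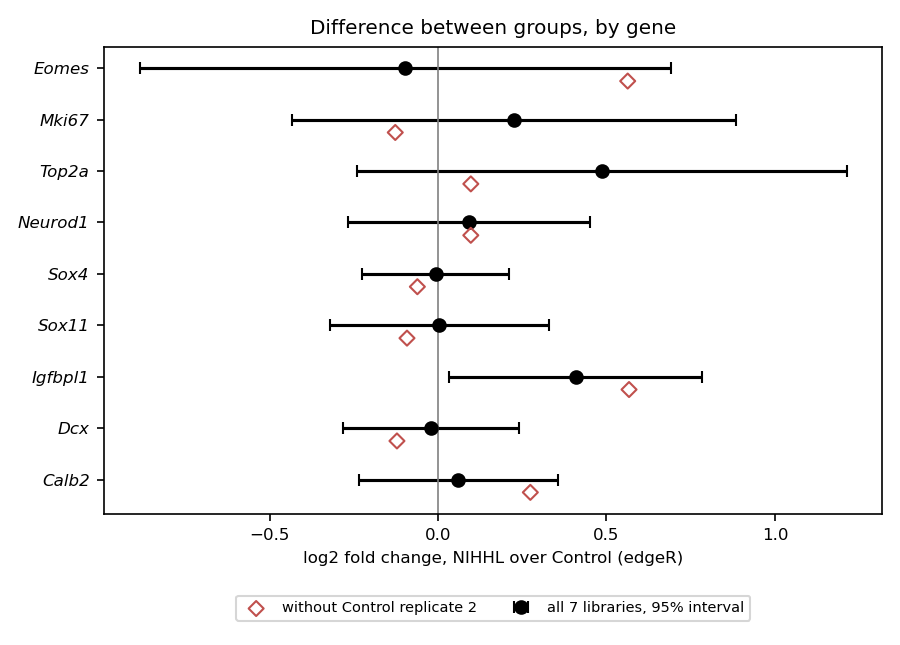
Points give the log2 fold change of NIHHL over Control from edgeR with its 95% interval over all 7 libraries, and open diamonds the same value without Control replicate 2. The interval of Igfbpl1 starts at 0.03 and all others include 0, and the diamond of Eomes lies at 0.56 and that of Mki67 at -0.13.

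Levels of different genes were compared as TPM, a transcript abundance that divides counts by exon length (mean ± SD, n = 4 for NIHHL and n = 3 for Control). Calb2 was the highest, at 92.6 ± 7.16 TPM in NIHHL and 84.5 ± 14.5 TPM in Control, followed by Neurod1 at 27.4 ± 5.84 and 24.8 ± 5.06 TPM and Sox4 at 10.98 ± 0.562 and 10.7 ± 1.43 TPM. These 3 genes kept the order in all 7 libraries. Sox11 (6.17 ± 1.201 and 5.97 ± 1.17 TPM), Igfbpl1 (5.40 ± 0.661 and 3.87 ± 0.399 TPM) and Dcx (5.26 ± 0.655 and 5.16 ± 0.938 TPM, NIHHL before Control throughout) overlapped in level. Mki67, Top2a and Eomes were lowest, at 1.72 ± 0.170, 1.54 ± 0.117 and 1.54 ± 0.328 TPM in NIHHL and 1.47 ± 0.727, 1.10 ± 0.591 and 1.52 ± 0.826 TPM in Control, and their order changed between libraries.

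Across the 7 libraries the likeness of 2 genes was taken as the root mean square difference of their log2 deviations, where 0 is an identical profile. Among the 36 pairs of members the closest were Dcx with Sox11 at 0.13 and Dcx with Sox4 at 0.14, then Sox11 with Neurod1 at 0.18, Mki67 with Top2a at 0.20 and Igfbpl1 with Calb2 at 0.21. The farthest were Eomes with Top2a at 0.95 and Eomes with Mki67 at 0.86. These distances describe only 7 libraries, and in Control replicate 2 both members of each farthest pair deviated in opposite directions.

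Among 13654 other genes with a mean of at least 1 CPM, those nearest to Dcx were Zfp974, Mybl1, a transcription factor of the Myb family, and Cdon, a hedgehog co-receptor, at distances of 0.04 to 0.05. Cdon lay at 13.4, 17.5, 13.9 and 14.5 CPM in NIHHL replicates 1 to 4, against 15.2, 12.7 and 16.4 CPM in Control replicates 1 to 3. Nearest to Eomes were Spsb2, Spa17 and Hint2 (0.13 to 0.16), each highest in Control replicate 2. Nearest to Mki67 were Spata31f1e, Spata31f1b and Bace2, a relative of the beta-secretase Bace1 (0.12 to 0.15), each lowest in Control replicate 2. The levels of Spata31f1e and Spata31f1b are uncertain, since reads may be split among near-identical relatives.

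The stages around these genes were described with lists of other genes. In these and the later lists, a higher or lower mean in NIHHL was counted by the sign of the edgeR log2 fold change. Of 16 tested genes of radial glia-like stem cells, 12 had a higher mean in NIHHL and 4 a lower one, with a median log2 fold change of 0.09 (0.04 without Control replicate 2), and 0 were called. Vim, an intermediate filament of stem cells and astrocytes, lay at 53.8, 53.6, 57.0 and 47.9 CPM in NIHHL, against 45.0, 38.3 and 46.1 CPM in Control. Its log2 fold change was 0.30 (SE 0.09), as was that of the transcription factor Sox9 (SE 0.10), and that of Id4, an inhibitor of differentiation, was 0.25 (SE 0.09), each with an adjusted p of 0.996 by edgeR. NIHHL and Control did not overlap for these 3 genes, which were named for a small p. Over all tested genes, 5.2% did not overlap. The gap was narrow for Sox9, at 27.4 CPM in NIHHL replicate 2 against 27.2 CPM in Control replicate 3. For Id4 it lay between 91.7 CPM in NIHHL replicate 1 and 90.3 CPM in Control replicate 3.

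Vim and Sox9 are also made by ependymal cells, whose list of 10 genes had a higher mean in NIHHL in all 10 (median 0.46) and includes both genes. The other 8 genes of that list all had a higher mean in NIHHL (median 0.54). Of these, 6 had an unadjusted p under 0.05 by edgeR, beside 3.63% of all tested genes, and 0 were called. Their summed levels were 63.0 to 79.2 CPM in NIHHL and 38.8 to 55.9 CPM in Control. Like the other lists, this one was chosen with earlier results of these data known. Ak7 (0.70, SE 0.16) and Cfap44 (0.53, SE 0.14), both of motile cilia, led that list by p. Their part in the values of Vim and Sox9 was not tested. Apart from Vim, Sox9 and Id4, the tested stem cell genes had log2 fold changes from -0.23 (Fabp7) to 0.22 (Lpar1). Hopx was at 0.02 and Sox2 at 0.06, and these 4 were named after their values were seen.

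Intermediate progenitor genes had a higher mean in NIHHL in 2 and a lower one in 5 of 7 tested cases (median -0.08, and -0.15 without Control replicate 2). Elavl2, an RNA-binding protein, led by p with a log2 fold change of -0.20 (SE 0.10). Neurog2, a proneural factor upstream of Neurod1, was named after its value was seen, at 0.83 to 1.3 CPM in NIHHL and 0.90 to 1.55 CPM in Control.

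Most cell cycle genes had a higher mean in NIHHL, and for the later phase this rested on Control replicate 2. Of 23 genes of the G2 and M phases, 18 had a higher mean in NIHHL (median 0.17), and without Control replicate 2 the count was 10 of 23 and the median turned to -0.07. Control replicate 2 was the lowest library for 12 of the 23, with a median deviation of -0.41. Smc4, a condensin subunit that compacts mitotic chromosomes, led by p at 0.39 (SE 0.16). Of 16 S phase genes 12 had a higher mean in NIHHL (median 0.11), and without Control replicate 2 there were 11 (median 0.06). Mcm6, a subunit of the replicative helicase, lay at 20.0, 26.8, 23.3 and 24.1 CPM in NIHHL, against 21.3, 17.1 and 18.6 CPM in Control. Its log2 fold change was 0.31 (SE 0.12) with an adjusted p of 0.996 by edgeR.

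**Figure D5:**
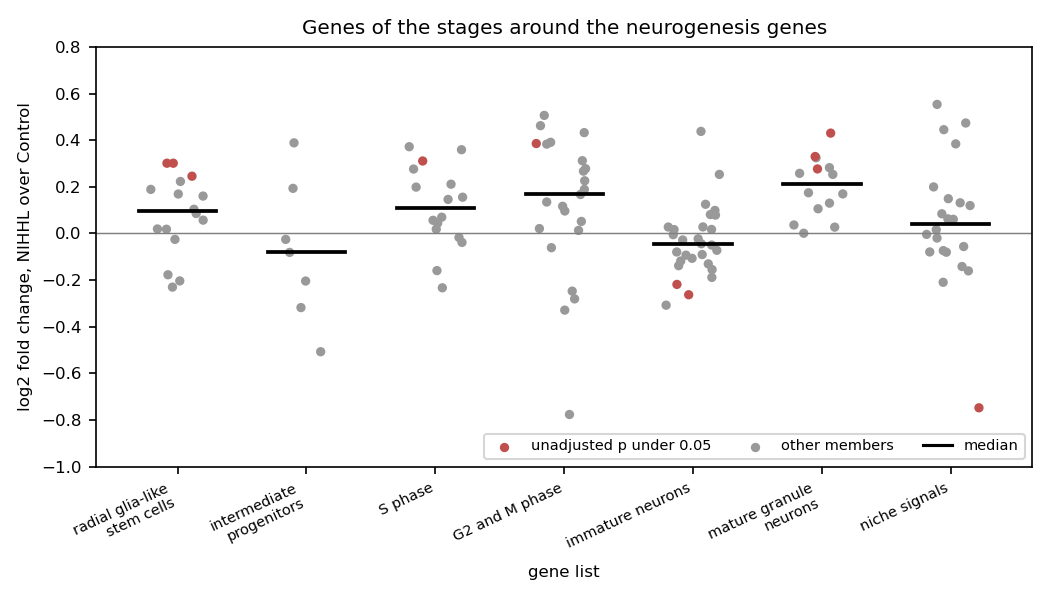
Each point is the log2 fold change of NIHHL over Control of 1 tested gene in a list of neurogenesis stages, with the list's median as a bar and genes at an unadjusted p under 0.05 in red. Medians run from -0.08 for intermediate progenitors to 0.21 for mature granule neurons.

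Of 28 other genes listed for neuroblasts and immature neurons, 10 had a higher and 18 a lower mean in NIHHL (median -0.05), and 0 were called. The list is not particular to these cells. Prox1 is also on the mature granule neuron list, Neurod2 and Neurod6 on the pyramidal neuron list, and Tac2 on that of thalamus and habenula. Stmn2, a microtubule regulator of growing axons, lay at 281, 283, 283 and 273 CPM in NIHHL, against 294, 358 and 325 CPM in Control, without overlap. It was named for a small p, and the groups did not overlap in 5.2% of all tested genes. The log2 fold change of Stmn2 was -0.22 (SE 0.07), and that of Gap43, a growth cone protein, was -0.26 (SE 0.09), each with an adjusted p of 0.996 by edgeR. Both are also made by mature neurons. Without Control replicate 2 the log2 fold change was -0.14 for Stmn2 and -0.22 for Gap43, and neither had an unadjusted p under 0.05.

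Mature granule neuron genes were on the higher side in NIHHL in 14 of 14 cases, with a median of 0.21. Glis3, a zinc finger factor, lay at 15.1, 16.1, 15.6 and 18 CPM in NIHHL, against 15.0, 12.3 and 11.4 CPM in Control (log2 fold change 0.33, SE 0.12). Pdzd2 was at 0.28 (SE 0.10) and Lct at 0.43 (SE 0.17), and each of the 3 had an adjusted p of 0.996 by edgeR. Control replicate 3 had the lowest median deviation of this list, -0.33. NIHHL replicate 1, at -0.145, lay beside Control replicate 2, at -0.141. Control replicate 1 was at 0.09, and NIHHL replicates 2 to 4 were at 0.22, 0.07 and 0.22. Calb1, calbindin of mature granule neurons, had a log2 fold change of 0.0011 and was named after its value was seen.

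Signals of the neurogenic niche were split, with 12 of 22 higher in NIHHL and a median of 0.04 (0.01 without Control replicate 2), and Dkk1 had no count in any library. Shh, the secreted sonic hedgehog that stem cells respond to, lay at 1.2, 0.69, 0.94 and 0.65 CPM in NIHHL, against 1.28, 1.34 and 1.79 CPM in Control. All NIHHL libraries lay below all Control libraries, while groups did not overlap in 5.2% of all tested genes. The level was low, its counting error was not estimated, and NIHHL replicate 1 lay close to Control replicate 1. For Shh the log2 fold change was -0.75 (SE 0.30), with an adjusted p of 0.996 by edgeR. The growth factors Bdnf and Igf1, named after their values were seen, were at -0.16 and 0.08.

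Other cells that could carry the 9 genes were followed beside them. Oligodendrocyte precursors and microglia also divide. Of the precursor genes 9 of 10 had a higher mean in NIHHL (median 0.10), a count of 7 without Control replicate 2, and they summed to 618 to 712 CPM in NIHHL and 546 to 654 CPM in Control, and Sox10 led it by p at 0.20 (SE 0.09). The microglia list had 6 of 10 higher (median 0.04, and 0.02 without Control replicate 2), summed to 472 to 584 CPM in NIHHL and 500 to 541 CPM in Control, with C1qa at 0.12 (SE 0.08). Their part in the values of Mki67 and Top2a was not tested.

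For Calb2, the interneuron list covered interneurons in general, not only those with calretinin. It had 3 of 12 genes higher in NIHHL (median -0.08), and 1 of 12 without Control replicate 2 (median -0.04). Pvalb led it by p at -0.22 (SE 0.13), and came to -0.12 without Control replicate 3. Cajal-Retzius genes were higher in 6 of 6 tested cases (median 0.22), led by Trp73 at 0.45 (SE 0.18) with an adjusted p of 0.996 by edgeR, and without Control replicate 2 the count was 5 of 6 (median 0.44). Their summed level was 151 to 176 CPM in NIHHL and 138 to 162 CPM in Control. Most of that sum was Reln, at 84.3 to 104 CPM in NIHHL and 68.9 to 97.2 CPM in Control. Reln is also on the niche list, so the sum is not particular to Cajal-Retzius cells. The mossy cell list had 1 of 5 higher (median -0.09, and -0.0041 without Control replicate 2), led by Ap2s1 at -0.14 (SE 0.12), and Ghrhr had no count in any library. Genes of thalamus and habenula, which border the hippocampus and hold calretinin cells, were higher in 5 of 10 cases (median 0.01, and -0.13 without Control replicate 2). Synpo2 at 0.44 (SE 0.13), Tcf7l2 at 0.52 (SE 0.19) and Plekhg1 at 0.25 (SE 0.11) led by p, each with an adjusted p of 0.996 by edgeR. The 5 lower genes were Ramp3 (-0.37), Tac2 (-0.31), Lef1 (-0.27), Slc17a6 (-0.20) and Rgs16 (-0.12). The part of these cells in the level of Calb2 was not tested.

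Neuroblasts of the subventricular zone and olfactory pathway share Dcx, Sox11 and Calb2 with those of the dentate gyrus. Of their own markers 2 of 7 had a log2 fold change above 0 (median -0.05), and Meis2 led by p at -0.17 (SE 0.13). Control replicate 2 was the highest library for 6 of these 7 genes, with a median deviation of 0.40. Without that library 6 of 7 had a log2 fold change above 0 (median 0.22). Their part in the high Eomes and Calb2 of that library was not tested. Choroid plexus genes, whose amount varied from library to library, summed to 667 to 8680 CPM in NIHHL and 205 to 7130 CPM in Control. Of these, 10 of 10 were higher in mean (median 0.69, and 1.95 without Control replicate 2), and 0 had an unadjusted p under 0.05 by edgeR. Tmem72 led by p at 0.29 (SE 0.19). It varied little over the 7 libraries, from 100 to 173 CPM, while Ttr ran from 56.3 to 7830 CPM. Of the pyramidal neuron genes 3 of 13 had a higher mean in NIHHL (median -0.09, and -0.02 without Control replicate 2), led by Slc17a7 at -0.15 (SE 0.08).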

How the data were processed

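Polyadenylated RNA of hippocampus was sequenced per the labels, and the authors deposited expected counts per gene, of which 90.7% were whole numbers. Per the submitters' processing notes the tools were DESeq2, HISAT2, Bowtie2 2.2.8 and StringTie 1.3.1, with no role stated. No build, annotation, counting step or strandedness is given in the sources used here.

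The counts of the 9 genes were whole numbers in every library. All counts were rounded, filtered by filterByExpr (minimum count 10, leaving 14417 genes with 99.96% of counts), scaled by TMM and tested with edgeR 4.0.16 (quasi-likelihood, robust, group as the term, R 4.3.3), with Benjamini-Hochberg adjustment over all tested genes. Log2 CPM carries a prior count of 2. The SE is the log2 fold change over the root of its F statistic. Single values were also tested by exact permutation over 35 splits. DESeq2 1.42.0 and limma 3.58.1 were alternatives. Exon lengths are unions of GENCODE M21 exons (GRCm38), matched by identifier for 21806 genes. Scripts were tested on simulated data. Intervals on counts cover counting error only, since the labels name no molecular identifiers.

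The members and lists were chosen with earlier results of these data known. From each list the text names up to 3 genes with an unadjusted p under 0.05, otherwise the gene with the smallest p, plus the 3 genes nearest in profile to Dcx, Eomes and Mki67.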

Additional observations from a re-analysis of the deposited data

Results flagged for a closer look

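In the 4 NIHHL libraries, 1 library stood far from the rest in 2 of 34 genes examined, and chance gives about 1 in 20. Stmn2 was at 273 CPM in NIHHL replicate 4 and at 281 to 283 CPM in the other NIHHL libraries. Ap2s1, a clathrin adaptor subunit, was at 68.4 CPM in NIHHL replicate 4 and at 83.8 to 86.7 CPM in the others. No neurogenesis gene was singled out in this way among NIHHL libraries, and Control, with 3 libraries, was too small to examine.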

How the results depend on the processing

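Under 16 alternatives 0 of the 9 genes were called, and 28 of 544 log2 fold changes of the 34 named genes changed sign, none of them called. Over all genes, edgeR called 0 (523 at an unadjusted p under 0.05); DESeq2 called 4 (447), none of the 9, and leaving out both Control replicate 2 and NIHHL replicate 4 left 1, Gcat. Of the 9 genes, 0 had an unadjusted p under 0.05 by DESeq2, 3 (Eomes, Igfbpl1 and Calb2) without both libraries and 1 over all libraries. Without both libraries the log2 fold change was -0.19 for Sox11, -0.036 for Neurod1, 0.70 for Eomes, -0.057 for Mki67 and 0.081 for Ap2s1. With a replicate block on replicates 1 to 3 it was -0.10 for Sox11, 0.040 for Sox4, -0.033 for Neurod1 and 0.19 for Eomes, with 0 genes called. The labels do not say whether replicate numbers pair the samples. Deviations from the group mean in libraries of the same number had correlations of -0.52, -0.33 and -0.04. These cannot decide it, since library deviations also followed exon length. With the length offset, chosen after seeing the data, Sox11 was at -0.017. Leaving out 1 library at a time gave -0.12 to 0.051 for Dcx, -0.10 to 0.11 for Sox11, -0.061 to 0.063 for Sox4, -0.041 to 0.22 for Neurod1, -0.33 to 0.56 for Eomes, -0.13 to 0.46 for Mki67, -0.064 to 0.27 for Calb2, -0.24 to 0.0097 for Ap2s1 and -0.29 to 0.0018 for Meis2. The causes were not tested. Among the other named genes, leaving out Control replicate 2 gave 0.15 for Id4, 0.12 for Sox10, 0.14 for Plekhg1 and -0.078 for Slc17a7. Lct was at 0.67 and C1qa at 0.077 without Control replicate 1, Slc17a7 at -0.23 without Control replicate 3, Tmem72 at 0.17 without NIHHL replicate 1, and Pvalb at -0.15 without NIHHL replicate 4. Counts per library were 20 to 127 for Eomes, Mki67 and Top2a and 55 to 119 for Igfbpl1, and their part in the width of the intervals was not tested.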
